A study of Homo sapiens with 12 samples.

Results

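MYB, ZNF367 and DLX1 are 3 genes for DNA-binding proteins, taken from the 14118 genes measured by name in 3 colorectal cancer cell lines because their signals were lower after the p53 activator Nutlin-3a. Each was found by its symbol among the array's probe sets, and each has 1 probe set, so no choice between probe sets was needed. Their changes after Nutlin-3a were in view when the genes were chosen: those of MYB and ZNF367 in every line, and that of DLX1 in HCT116. These changes are therefore given as a description with no test. Tests are kept for the levels in untreated cells and for DLX1 in SW48 and RKO.

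The data come from 12 microarrays of the type Affymetrix Human Gene 2.0 ST, with RNA of HCT116, SW48 and RKO, established lines grown from human colorectal cancers and labelled as p53 wild type. In each line 2 arrays came from untreated cells and 2 from cells given 10 µM Nutlin-3a for 8 h, which makes 6 groups. Nutlin-3a is a small molecule that keeps MDM2 from binding p53, so that p53 accumulates. All groups carry wild-type p53 by their labels, so the comparisons are between treated and untreated cells, and the labels name no vehicle for the untreated cells. The labels do not say whether the duplicates were separate cultures, so each p-value measures only how far these samples spread, which may be technical. A difference between lines cannot be told apart from one between their culture or array batches.

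MYB encodes c-MYB, a transcription factor that binds DNA through helix-turn-helix repeats and keeps progenitor cells dividing, in blood and in the crypts of the colon. ZNF367 encodes a zinc finger protein of the C2H2 class. DLX1 encodes a homeodomain protein of the distal-less family, best known from the development of forebrain interneurons and the jaw, and lies beside its relative DLX2. Stabilized p53 acts mainly as an activator of transcription. Many genes that decline in its presence are known to be held down indirectly, through the cell cycle inhibitor p21, the retinoblastoma family of proteins, and the repressor complexes these form at E2F and CHR promoter elements.

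The promoters are shown because genes of the E2F-regulated class share short promoter words, and because the 3 genes carry different ones. Each sequence holds 300 bases of RefSeq sequence (GRCh38.p14), from 250 bases before the annotated gene start to 50 after it, 5′ to 3′ on the gene's own strand. MYB lies on the plus strand (chr6:135181058-135181357), ZNF367 on the minus strand (chr9:96418321-96418620) and DLX1 on the plus strand (chr2:172085257-172085556). Capitals mark E2F words (TTTCCCGC, TTTCGCGC, TTTGCCGC or TTTGGCGC), the E2F core GGCGGGA, the CHR word TTTGAA and the CCAAT box, each searched on both strands. The motifs were chosen after the promoters had been seen, and a match is a description of letters, not of a bound site.
MYB: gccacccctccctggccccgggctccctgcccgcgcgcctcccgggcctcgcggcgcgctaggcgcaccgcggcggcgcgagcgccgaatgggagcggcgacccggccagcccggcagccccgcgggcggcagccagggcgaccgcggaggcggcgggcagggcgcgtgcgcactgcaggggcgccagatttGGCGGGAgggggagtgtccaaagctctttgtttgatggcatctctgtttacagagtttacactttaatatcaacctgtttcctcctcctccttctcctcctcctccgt
ZNF367: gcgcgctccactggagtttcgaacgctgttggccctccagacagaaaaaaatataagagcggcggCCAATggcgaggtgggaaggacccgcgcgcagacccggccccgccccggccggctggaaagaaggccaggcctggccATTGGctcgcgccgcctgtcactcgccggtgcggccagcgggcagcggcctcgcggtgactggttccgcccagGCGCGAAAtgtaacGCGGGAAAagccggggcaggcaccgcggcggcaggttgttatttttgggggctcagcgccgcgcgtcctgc
DLX1: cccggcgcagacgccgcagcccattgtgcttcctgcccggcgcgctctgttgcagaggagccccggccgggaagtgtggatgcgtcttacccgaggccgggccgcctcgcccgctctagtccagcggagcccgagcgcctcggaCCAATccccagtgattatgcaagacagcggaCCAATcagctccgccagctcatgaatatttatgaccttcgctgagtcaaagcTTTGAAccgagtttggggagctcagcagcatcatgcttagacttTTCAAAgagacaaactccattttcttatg
The MYB window is 71% G and C, against a median of 58.3% over all promoters, and holds the E2F core once, 58 bases before the start. That word stands in 15.5% of the 27305 promoters of this length, in 54.1% of those of the E2F G1/S list used below and in 57.1% of those of the p53-activated list. The ZNF367 window holds the E2F words GCGCGAAA and GCGGGAAA, 35 and 21 bases before the start, both of which read as searched words on the opposite strand, and 2 CCAAT boxes further upstream. At least 1 E2F word stands in 3.33% of all promoters, and 2 or more in 42 promoters, or 0.154%. The DLX1 window holds no E2F word of this set, but has 2 CCAAT boxes, 106 and 75 bases before the start, and 2 CHR words, 23 bases before the start and 22 bases after it. A CCAAT box stands in 35.7% of promoters and at least 2 CHR words in 2.34%. The MYB site (CAACNG or TAACNG), found in 46.3% of promoters, occurs as CTGTTG in the ZNF367 and DLX1 windows. No p53 half-site, TAATTA or TATAAA was found in the 3 windows; these stand in 6.54%, 4.98% and 12% of all promoters.

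**Figure D1:**
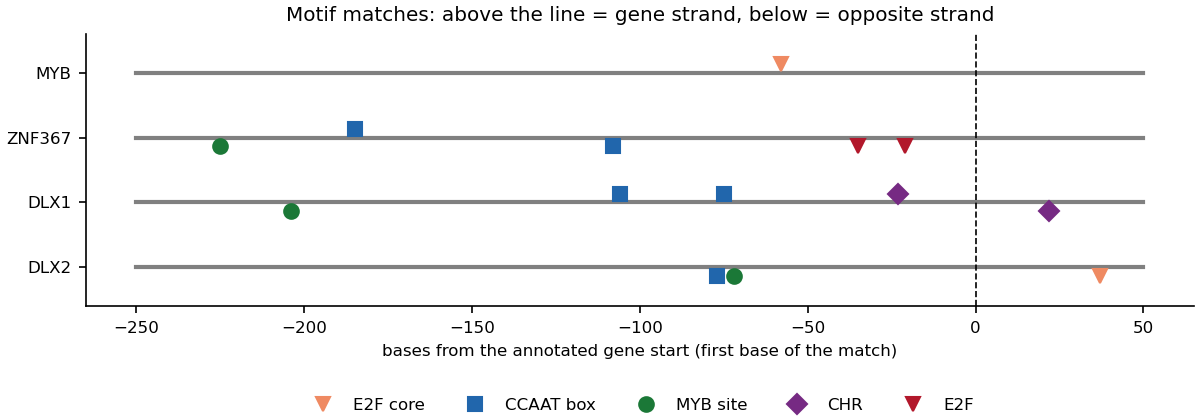
Motif matches in the 300-base promoters of MYB, ZNF367, DLX1 and the neighbouring DLX2; the horizontal axis gives bases from the annotated gene start, and marks above or below each line are on the gene's strand or the opposite one. The pair of E2F words of ZNF367 lies 35 and 21 bases before the start, and the CHR words of DLX1 lie on either side of its start.

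Levels are log2 values as deposited, so a difference of 1 is a 2-fold difference in signal. Levels of different genes come from different probe sets and are not compared. Over the genes, Pearson's r was 0.997 to 0.998 within a group, 0.995 to 0.996 between the treatments of a line and 0.94 to 0.951 between lines. A gene is called changed where limma's adjusted p, over all 14118 genes, is under 0.05. By that rule Nutlin-3a changed 721 genes in HCT116 (5.11%), 441 in SW48 (3.12%) and 285 in RKO (2.02%), and the median change of all genes was -0.0112, -0.0133 and -0.00683. Of the HCT116 calls 60.3% were higher, a share of 72.3% on median-centred arrays.

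MYB was lower after Nutlin-3a in all 3 lines, by the most in HCT116. In HCT116 the untreated arrays read 7.10 and 7.04 and the treated arrays 5.99 and 6.09, a difference of -1.03 ± 0.091 (log2, SE of the fit, n = 2 and 2) that leaves 49.0% of the untreated signal. In SW48 the untreated arrays read 7.99 and 8.27 and the treated arrays 7.64 and 7.55, a difference of -0.54 ± 0.091, or 69.0% of the untreated signal. In RKO the untreated arrays read 8.24 and 8.35 and the treated arrays 7.65 and 7.60, a difference of -0.67 ± 0.091, or 62.9%. Both treated arrays lay below both untreated arrays in every line. By size of drop among the 14118 genes, MYB ranked 2 in HCT116, 64 in SW48 and 13 in RKO. The SW48 value depended most on single arrays: it was -0.40 without untreated replicate 2 and -0.67 without untreated replicate 1.

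ZNF367 was lower by a similar amount in HCT116 and SW48 and by less in RKO. In HCT116 the untreated arrays read 9.49 and 9.39 and the treated arrays 8.41 and 8.42, a difference of -1.03 ± 0.061 (49.0% of the untreated signal). In SW48 the untreated arrays read 9.03 and 8.96 and the treated arrays 7.88 and 7.95, a difference of -1.08 ± 0.061 (47.3%). In RKO the untreated arrays read 8.80 and 8.81 and the treated arrays 8.47 and 8.48, a difference of -0.33 ± 0.061 (79.6%). The treated arrays lay below the untreated ones in each line, with no overlap. By size of drop ZNF367 ranked 3 in HCT116, 1 in SW48 and 273 in RKO.

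DLX1 differed most in HCT116, where the untreated arrays read 6.72 and 6.58 and both treated arrays 5.76. The difference there was -0.89 ± 0.080, or 54.1% of the untreated signal, rank 8 among all genes. In SW48 the untreated arrays read 7.39 and 7.48 and the treated arrays 7.20 and 7.29. The difference of -0.19 ± 0.080 was not called (limma, adjusted p = 0.284, 95% interval -0.368 to -0.00837). In RKO the untreated arrays read 8.14 and 7.96 and the treated arrays 7.70 and 7.62, and DLX1 fell by 0.39 ± 0.080 (adjusted p = 0.0415, 95% interval -0.572 to -0.212, 76.2% of the untreated signal). This call was narrow: without any 1 of the 12 arrays the adjusted p lay between 0.0533 and 0.211, and with quantile normalization it was 0.0521. The RKO change minus the SW48 change, a contrast added after the data had been seen, was -0.20 ± 0.11 (95% interval -0.458 to 0.0511, adjusted p = 0.557), so the lines are not shown to differ. In that contrast 0.361% of genes were called.

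For all 3 genes and in all 3 lines, the treated arrays did not overlap the untreated ones. Of all genes, 27% had both treated arrays below both untreated ones in HCT116, 27.4% in SW48, 25.7% in RKO, and 6.23% in all 3 lines. Averaged over the lines, the differences were -0.74 ± 0.052 for MYB, -0.81 ± 0.035 for ZNF367 and -0.49 ± 0.046 for DLX1. In whole cultures, fewer cells that express a gene and less RNA per cell cannot be told apart.

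**Figure D2:**
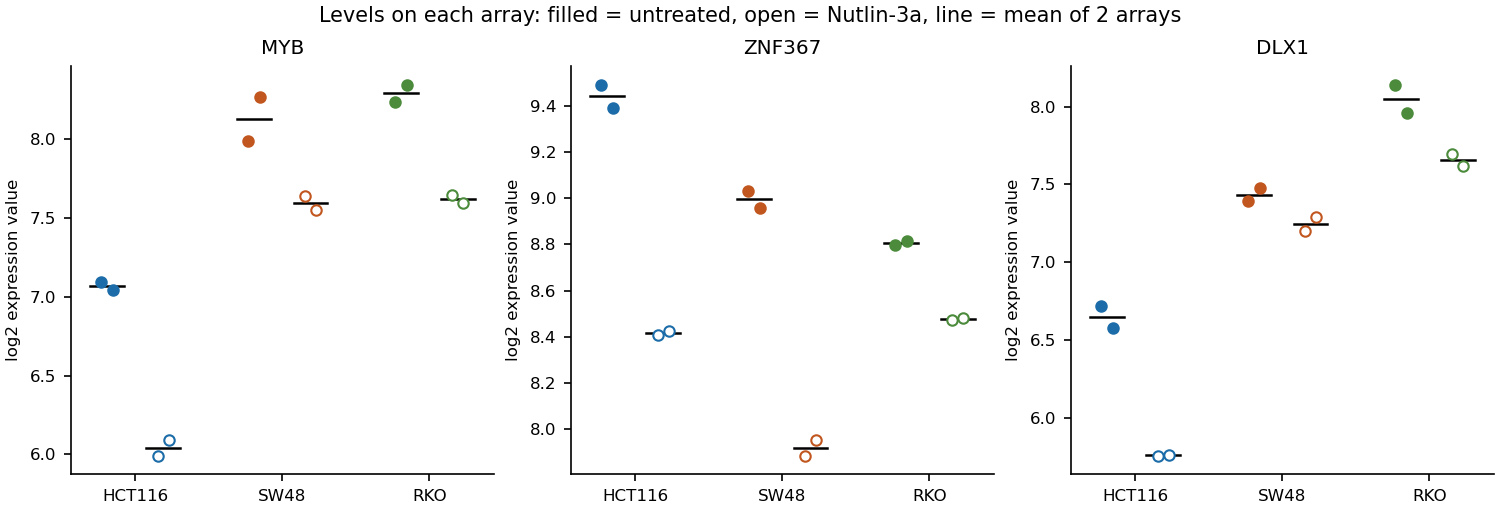
Log2 expression values of MYB, ZNF367 and DLX1 on each of the 12 arrays by cell line; filled points are untreated arrays, open points Nutlin-3a arrays and lines the means of 2 arrays, with a separate vertical scale for each gene that does not start at 0. In each line the open points lie below the filled ones, with mean differences from -0.19 for DLX1 in SW48 to -1.08 for ZNF367 in SW48.

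The untreated lines differed in all 3 genes, and the order of the lines was not the same. These contrasts were not used to choose the genes, but they rest on the same untreated arrays as the changes above. MYB was low in HCT116, at 7.07 ± 0.036 (SD, n = 2), against 8.13 ± 0.19 in SW48 and 8.29 ± 0.076 in RKO. It was 2.08-fold higher in SW48 than in HCT116 (log2 1.06 ± 0.091, limma adjusted p = 5.57e-06) and 2.34-fold higher in RKO than in HCT116 (1.22 ± 0.091, adjusted p = 2.39e-06). RKO and SW48 were not separated (0.16 ± 0.091, 95% interval -0.0402 to 0.367, adjusted p = 0.181), except without SW48 untreated replicate 2, when the difference was 0.30 (adjusted p = 0.0205).

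ZNF367 had the reverse order, with 9.44 ± 0.070 in HCT116, 9.00 ± 0.053 in SW48 and 8.81 ± 0.011 in RKO. It was 1.36-fold lower in SW48 than in HCT116 (log2 -0.45 ± 0.061, adjusted p = 0.00015) and 1.55-fold lower in RKO than in HCT116 (-0.64 ± 0.061, adjusted p = 1.49e-05). The step from SW48 to RKO was small, 1.14-fold (-0.19 ± 0.061, adjusted p = 0.0276). That call was lost without SW48 untreated replicate 1 (adjusted p = 0.147), RKO untreated replicate 1 (0.101) or RKO untreated replicate 2 (0.077), and with the arrays centred on their medians (0.0573).

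DLX1 was lowest in HCT116 and highest in RKO, with 6.65 ± 0.099 in HCT116, 7.43 ± 0.059 in SW48 and 8.05 ± 0.13 in RKO. It was 1.73-fold higher in SW48 than in HCT116 (log2 0.79 ± 0.080, adjusted p = 2.01e-05), 2.64-fold higher in RKO than in HCT116 (1.40 ± 0.080, adjusted p = 3.54e-07) and 1.53-fold higher in RKO than in SW48 (0.62 ± 0.080, adjusted p = 0.000118). The lines differ in much else: 44.9%, 41.5% and 44.7% of all genes were called for SW48 against HCT116, RKO against HCT116 and RKO against SW48.

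Over the 6 groups, MYB ran from RKO untreated through SW48 untreated (overlapping arrays), RKO with Nutlin-3a, SW48 with Nutlin-3a (overlapping again) and HCT116 untreated to HCT116 with Nutlin-3a. Untreated HCT116 thus read lower for MYB than the treated cells of both other lines. The same held for DLX1, whose groups ran from RKO untreated and RKO treated through both SW48 groups to both HCT116 groups, with no overlap between neighbours. ZNF367 was ordered by treatment instead: HCT116, SW48 and RKO untreated, then RKO, HCT116 and SW48 treated, with no overlap. The range of the line means went from 1.22 untreated to 1.58 treated for MYB, from 1.4 to 1.9 for DLX1 and from 0.637 to 0.56 for ZNF367.

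Over the 12 arrays MYB and DLX1 had a Pearson correlation of 0.951, while MYB and ZNF367 had 0.117 and ZNF367 and DLX1 0.0061. With the line means subtracted these became 0.935, 0.888 and 0.812. MYB, ZNF367 and DLX1 were chosen because they were lower after Nutlin-3a, and this subtraction keeps the treatment change. High coefficients after it therefore follow in part from the choice, and joint regulation of the genes was not tested. The arrays share lines and treatments, so the coefficients describe these 12 arrays and are not tested. The genes most like MYB in raw level were BCL2L11 (0.986), which encodes the death-promoting protein BIM, and CUL1 (0.975), a ubiquitin ligase scaffold. For ZNF367 they were WDHD1 (0.937), a replication fork protein, FN3KRP (0.936) and BARD1 (0.928), the partner of BRCA1. For DLX1 they were NRARP (0.985), a Notch feedback regulator, and CCN3 (0.983), a secreted matrix protein. BCL2L11 changed by -0.39, -0.12 and -0.25 in HCT116, SW48 and RKO, and NRARP by -0.54, -0.25 and -0.42.

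With the line means subtracted, the genes most like ZNF367 were BARD1 (0.990), SASS6 (0.988), a centriole assembly protein, EXO1 (0.988), a DNA repair exonuclease, and FOXM1 (0.987), a factor of the G2 program. BARD1 differed by -0.58, -0.64 and -0.09 and EXO1 by -0.67, -0.76 and -0.30 in HCT116, SW48 and RKO. As with ZNF367, the value in RKO was the smallest. FOXM1 differed by only -0.15, -0.20 and -0.05, so its likeness is one of shape and not of size. For MYB the nearest were ADGRA3 (0.976), DCAF16 (0.973) and SUV39H2 (0.972), a histone methyltransferase. For DLX1 they were PTGR3 (0.971) and its neighbour DLX2 (0.968). All these genes were picked by their likeness, so their differences are given with no test.

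In the list of MYB family genes and cofactors, with 10 of 13 measured, 3 fell in HCT116 and none rose, where 2.03% of all genes fell. They were MYBL2, which encodes the cell cycle factor B-MYB, by 0.25 ± 0.052 (adjusted p = 0.0263), and the ETS factors ETS1 by 0.36 ± 0.079 (0.0281) and ETS2 by 0.29 ± 0.062 (0.0263). The calls of MYBL2 and ETS2 were lost without any 1 of the 4 HCT116 arrays and that of ETS1 without 3 of them, with adjusted p up to 0.173, and all 3 on median-centred arrays. In SW48 2 fell, where 1.74% of all genes fell: MYBL2 by 0.60 ± 0.052 (adjusted p = 0.000171) and PSIP1, a chromatin-bound coactivator, by 0.29 ± 0.059 (0.0315, up to 0.183 without an SW48 or a treated HCT116 array). In RKO 1 fell, where 0.793% of all genes fell: ETS2 by 0.42 ± 0.062 (0.0103, up to 0.0736 without any 1 of the 4 RKO arrays). MYBL1, which encodes A-MYB, was not called in any line, at -0.03, -0.19 and 0.08 in HCT116, SW48 and RKO. The list medians were -0.0959, -0.106 and 0.0495.

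Genes reported as MYB targets showed few calls. Of 15 measured of 20, 1 rose in HCT116, where 3.08% of all genes rose: PTGS2, the inducible cyclooxygenase, by 0.58 ± 0.12 (adjusted p = 0.0233, up to 0.125 without 3 of the HCT116 arrays in turn). In SW48 1 fell, BCL2, an inhibitor of apoptosis, by 0.53 ± 0.10 (0.0216, up to 0.148 without 3 of the SW48 arrays in turn). In RKO 1 fell, MYC, by 0.36 ± 0.065 (0.0249, up to 0.149 without any 1 of the 4 RKO arrays). The medians of the list were 0.0126, -0.0412 and -0.0172. At an unadjusted p under 0.05, 4 of the 15 genes were found in HCT116, where 19.6% of all genes were. There were 4 in SW48 and 5 in RKO, where 16.2% and 16.9% of all genes were. By adjusted p, 6.67% of the list fell in SW48 and in RKO, against 1.74% and 0.793% of all genes. BCL2 was at -0.33 in HCT116, where it was not called, and its mean change over the 3 lines was called lower, at -0.39 (adjusted p = 0.00268). In that mean contrast 10.8% of all genes were called, 4.33% higher and 6.44% lower.

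Of 12 microRNA genes reported to act on MYB, 10 were measured, and 1 was called, MIR34A in SW48, where 1.38% of all genes rose. MIR34A is a direct target of p53, and its main product hsa-miR-34a-5p, from chr1:9151735-9151756 on the minus strand (RefSeq, GRCh38.p14), is shown with its seed, bases 2 to 8, in capitals.
hsa-miR-34a-5p: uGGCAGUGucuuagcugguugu
The MIR34A probe set covers the precursor's locus and does not measure the mature RNA. In SW48 it read 4.28 and 4.40 untreated and 5.78 and 5.80 treated, a rise of 1.45 ± 0.079 (adjusted p = 1.97e-05). In HCT116 it read 3.73 and 3.61 untreated and 3.78 and 3.85 treated, and in RKO 3.53 and 3.70 against 3.85 and 3.77. The changes there, 0.14 and 0.19, were not called (limma, adjusted p = 0.364 and 0.261), and of the 10 genes 2 were at an unadjusted p under 0.05 in each of these lines. All MIR34A readings in HCT116, RKO and untreated SW48 lay under the column medians of 4.97 to 5.05, so these signals were dim.

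The distal-less family and its relatives, with 8 of 9 measured, gave 1 fall in HCT116 (DLX2), 1 rise in SW48 (DLX3) and no limma call in RKO (0 at an unadjusted p under 0.05), where 2.03% of all genes fell in HCT116 and 1.38% rose in SW48, with medians of -0.00721, -0.0489 and 0.0413. DLX2 lies next to DLX1 on the opposite strand, and its promoter (chr2:172102851-172103150) holds a CCAAT box 77 bases before the start, a MYB site 72 bases before it and the E2F core 37 bases after it, but no CHR word. In HCT116 DLX2 read 6.79 and 6.76 untreated and 6.45 and 6.47 treated, a fall of 0.31 ± 0.059 (adjusted p = 0.0167, up to 0.117 without any 1 of the 4 HCT116 arrays). In SW48 it read 8.82 and 8.84 against 8.66 and 8.77, and in RKO 7.30 and 7.25 against 7.15 and 7.17. The differences there were each -0.11 and were not called (adjusted p = 0.393 and 0.373). DLX1 and DLX2 both had their largest drop in HCT116, but DLX1 was chosen with that drop in view, so its place follows from the choice. In untreated cells the pair differed between lines: DLX2 was highest in SW48, 2.06 above HCT116 and 1.56 above RKO on the log2 scale, while DLX1 was highest in RKO.

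DLX3, a factor of skin and tooth development, rose by 0.43 ± 0.065 in SW48 (adjusted p = 0.00641), from arrays of 4.83 and 4.86 to 5.28 and 5.27. Leaving out replicate 1 of either SW48 group ended that call (adjusted p up to 0.0531). DLX4, DLX5 and DLX6 were not called in any line. Among the 165 other homeobox genes, 9 fell and none rose in HCT116 (5.45% and 0%, against 2.03% and 3.08% of all genes), among them PBX3 by 0.43, SIX4 by 0.37 and OTX1 by 0.33. PBX3 lost its call without HCT116 untreated replicate 2 (adjusted p = 0.0532), SIX4 without 3 of the HCT116 arrays in turn (up to 0.101) and OTX1 without any 1 of the 4 (up to 0.201). The median of these homeobox genes was -0.0782 in HCT116. In either direction 5.45% of them were called there, near the 5.11% of all genes. At an unadjusted p under 0.05 there were 28 of the 165, where 19.6% of all genes were. In SW48 3 rose (DLX3, MEIS3 and NKX2-5) and 2 fell (HOXB3 and HOXB5), and in RKO 1 rose (IRX1), with medians of 0.0027 and 0.0255. These are 1.82% and 1.21% of the list in SW48, against 1.38% and 1.74% of all genes, and 0.606% in RKO, against 1.23%.

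**Figure D3:**
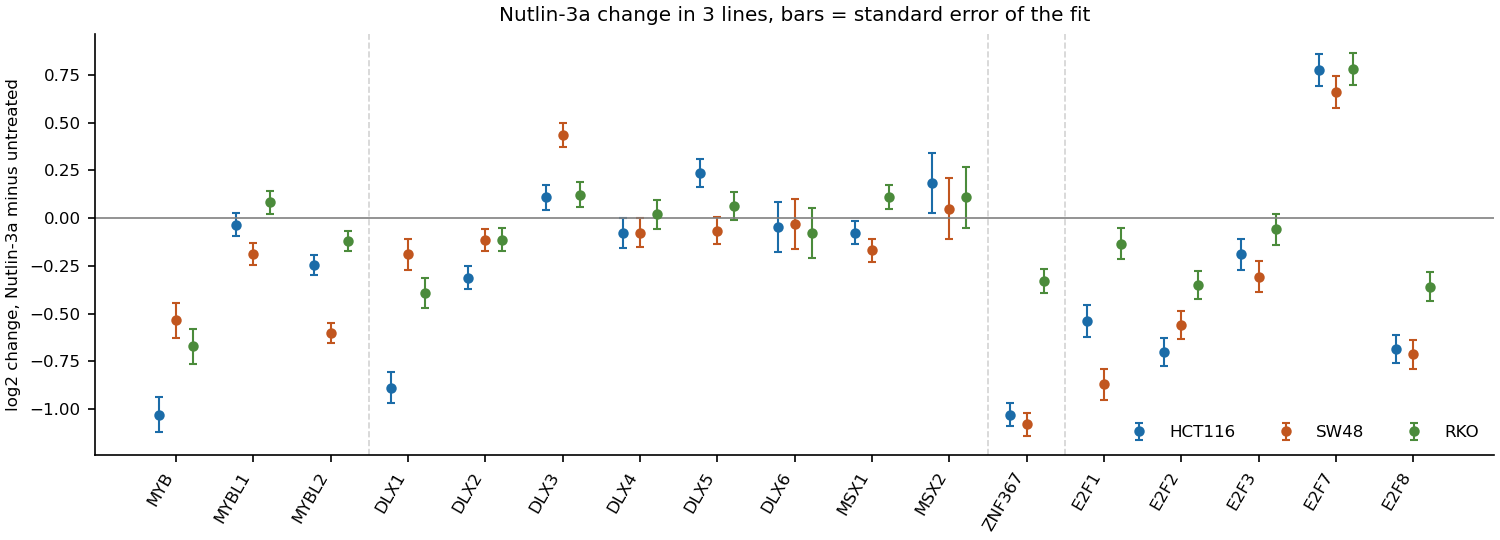
Log2 change after Nutlin-3a (vertical axis) of MYB, DLX1 and ZNF367 beside their family members and E2F genes; points are the 3 lines and bars the standard error of the fit. MYB and DLX1 in HCT116, at -1.03 and -0.89, lie below every relative in their sections of the axis. Both were chosen with these falls in view, so that place follows from the choice. E2F7 is above 0 in every line.

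ZNF367 has no close family list, so it was set beside the numbered ZNF genes, most of them zinc finger proteins. Of 434 others, 13 rose and 7 fell in HCT116, 11 rose and 8 fell in SW48, and 7 rose and 5 fell in RKO. As shares, 3% rose and 1.61% fell in HCT116, against 3.08% and 2.03% of all genes. In SW48 2.53% rose and 1.84% fell, against 1.38% and 1.74% of all genes, and in RKO 1.61% and 1.15%, against 1.23% and 0.793%. ZNF79 rose by 1.16, 0.94 and 1.10 in HCT116, SW48 and RKO, and ZNF337 by 0.69, 0.83 and 0.47. ZNF440 rose by 0.90, 0.55 and 0.50. Calls were lost for ZNF337 in RKO without 3 of the RKO arrays in turn (adjusted p up to 0.111), and for ZNF440 in SW48 without 2 SW48 arrays (up to 0.0752) and in RKO without any 1 of the 4 RKO arrays (up to 0.145). The medians of these genes, -0.00457, -0.017 and -0.0419, were close to those of all genes.

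Genes of the G1/S program that E2F drives fell in most cases in HCT116 and SW48. Their list was made with earlier results of these data known, which named MSH6 and CCNE2 among the largest falls. Its counts are therefore a description and no independent support. Of 29 measured of 44, 19 fell in HCT116 and 20 in SW48, with none higher, and medians of -0.317 and -0.472, where 2.03% and 1.74% of all genes fell. RKO had 7 falls and 1 rise, where 0.793% of all genes fell and 1.23% rose, and its median was -0.20. At an unadjusted p under 0.05, in either direction, there were 24 of the 29 genes in HCT116, 28 in SW48 and 23 in RKO. Of all genes, 19.6%, 16.2% and 16.9% were. CCNE1, which encodes cyclin E1, fell by 0.90 ± 0.056, 0.67 ± 0.056 and 0.47 ± 0.056 in HCT116, SW48 and RKO (adjusted p = 2.02e-05, 0.000136 and 0.00261). MSH6, a mismatch repair gene, fell by 0.76, 0.89 and 0.45, with the RKO call lost without treated replicate 2 (adjusted p = 0.0523). MCM10, a replication initiation factor, fell by 0.63, 0.97 and 0.37, with the RKO call lost without any 1 of the 4 RKO arrays (up to 0.0965). The gene that rose in RKO was PCNA, the replication clamp and a known direct p53 target, by 0.41 ± 0.071 (adjusted p = 0.0222). ZNF367 and the list median both had their smallest drop in RKO, a difference between lines that was not tested.

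Among the transcription factors of the cell cycle, with 18 of 22 measured, 5 fell in HCT116 and 6 in SW48, where 2.03% and 1.74% of all genes fell. E2F1 fell by 0.54 ± 0.083 in HCT116 (adjusted p = 0.00534, but 0.0581 without untreated replicate 1) and by 0.87 ± 0.083 in SW48 (0.000339), and was at -0.13 in RKO, where it was not called (0.468). E2F2 fell by 0.70, 0.56 and 0.35 and E2F8, a repressor of the family, by 0.68, 0.71 and 0.36 in HCT116, SW48 and RKO. The others were RBL1 and MYBL2 in HCT116 and in SW48, and LIN54 in SW48. In RKO the list's falls were E2F2 and E2F8, whose calls were lost without any 1 of the 12 arrays (E2F2, adjusted p up to 0.202) or without 11 of them in turn (E2F8, up to 0.19), and with quantile normalization 0 of the 2 remained. In HCT116 3 fell on median-centred arrays. E2F7, a repressor of the same family and a known p53 target, rose in each line, by 0.78 ± 0.084, 0.66 ± 0.084 and 0.78 ± 0.084 (adjusted p = 0.000637, 0.00249 and 0.00136).

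The list of p53-activated genes, with 13 of 25 measured, shows the response in which the 3 genes declined. It had 12 rises in HCT116, 13 in SW48 and 12 in RKO, with medians of 1.33, 1.14 and 1.23 and no falls. Of all genes, 3.08%, 1.38% and 1.23% rose in these lines. This list too was made with earlier results of these data known. TP53INP1, a stress response protein of autophagy, rose by 2.48 ± 0.077, 1.73 ± 0.077 and 1.90 ± 0.077 in HCT116, SW48 and RKO (adjusted p = 4.75e-07, 5.16e-06 and 5.42e-06). SESN1, a regulator of TORC1, rose by 1.88, 1.69 and 1.44. CDKN1A and MDM2 had no probe set paired with their symbol and are not analysed here. Genes of the intestinal crypt and Wnt signalling, the setting in which MYB is known in the colon, were nearly all uncalled. Of 14 measured of 16, limma called none in HCT116 (3 at an unadjusted p under 0.05, as were 19.6% of all genes). LGR5 fell in SW48 (by 0.63, adjusted p = 0.0059), a call lost without treated replicate 2. AXIN2 (by 0.50, adjusted p = 0.00525) and MYC fell in RKO. These falls are 7.14% of the list in SW48 and 14.3% in RKO, against 1.74% and 0.793% of all genes. At an unadjusted p under 0.05 there were 3 genes in SW48 and 5 in RKO, against 16.2% and 16.9% of all genes.

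**Figure D4:**
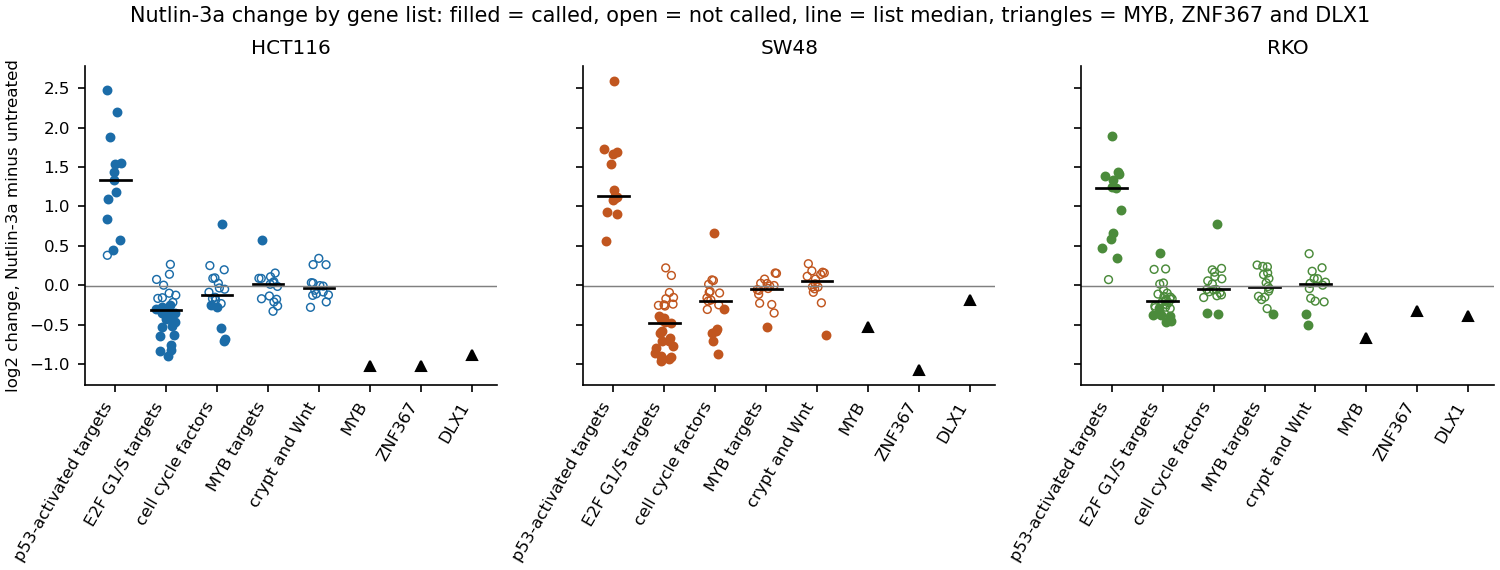
Log2 change after Nutlin-3a (vertical axis) of the genes of 5 lists and of MYB, ZNF367 and DLX1 in each line; filled points are called genes, open points are not, lines are list medians and triangles are the 3 genes. The p53-activated genes lie above 0 and most E2F G1/S genes below it, with list medians of 1.33 and -0.317 in HCT116.

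The untreated levels of these lists differed between lines as well. The G1/S list had 27 of 29 genes lower in SW48 than in HCT116, with a median of -0.565, where 22.1% of all genes were lower, and ZNF367 was lower too. In RKO against SW48, 24 were higher and 2 lower, with a median of 0.524, where 23.6% of all genes were higher and ZNF367 was lower by 0.19. MYBL2 was 1.66 lower in SW48 than in HCT116 on the log2 scale and MYBL1 1.14 lower, opposite to MYB, which was 1.06 higher.

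Of the nearest measured genes on the chromosome, DLX2 and HABP4 were called, both lower in HCT116, where 2.03% of all genes fell. These neighbours were MIR3662 and AHI1 for MYB, HSD17B3 and HABP4 for ZNF367, and METAP1D and DLX2 for DLX1. HABP4 fell by 0.30 ± 0.064 in HCT116 (adjusted p = 0.0245) and was not called in SW48 or RKO. Its HCT116 call was lost without any 1 of the 4 HCT116 arrays and on median-centred arrays. AHI1 differed by -0.02, 0.01 and -0.17 in HCT116, SW48 and RKO, and METAP1D by 0.05, 0.01 and -0.32, and neither was called, nor were MIR3662 and HSD17B3.

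Markers of the tissue of origin and of other cell types were nearly all uncalled after Nutlin-3a. Of the colon epithelial markers, 10 of 12 were measured and limma called none after Nutlin-3a (0 in HCT116, 0 in SW48 and 1 in RKO at an unadjusted p under 0.05). Their summed log2 level was 75.52 to 75.89 in untreated HCT116, 79.93 to 80.18 in SW48 and 58.07 to 58.36 in RKO. RKO thus had the lowest epithelial marker sum and the highest DLX1. For MYB, RKO was not separated from SW48, the line with the highest sum. In untreated RKO 6 of these markers were lower than in HCT116 and 7 lower than in SW48, with none higher. Of all genes, 19% and 21.1% were lower in these comparisons. The part of the markers in the line differences of the 3 genes was not tested. The extraction text of the labels speaks of thyroids, and 5 of 7 thyroid markers were measured, with summed levels of 25.4 to 26.96 over all arrays and none called by limma after treatment (0 in each line at an unadjusted p under 0.05). Of the blood, fibroblast or endothelial and neuronal markers, 9 were measured, and 1 was called, THY1. It fell by 0.32 ± 0.070 in HCT116 (limma, adjusted p = 0.0289), where 2.03% of all genes fell. How far that call depends on single arrays was not examined.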

How the data were processed

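Per the labels, 12 RNA samples were hybridised to Affymetrix Human Gene 2.0 ST arrays. The authors deposited log2 values for every probe set of each array. GCOS was used, per the submitters' processing notes; of its version, background correction, normalization and log base, none is given in the sources used here. Base 2 was taken from the range of 2.22 to 13.45. Column medians were 4.97 to 5.05. Labels on dye (Cy3 and biotin) and growth (HCT116 only) disagree with the design and were not resolved. Of 37270 probe sets 14530 had 1 symbol in the platform annotation, 0 several and 22740 none; for 395 genes with several, the one with the highest mean was used. All 14118 genes were found in RefSeq's GRCh38.p14 gene table.

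The linear model, in limma 3.58.1 under R 4.3.3, had 6 group means over 12 arrays, with 6 residual and 3.71 prior degrees of freedom, Benjamini-Hochberg adjustment over 14118 genes and a threshold of 0.05. The steps were tested on simulated data. The number of arrays limits the precision. Named genes are the 3 genes, their relatives, chromosomal neighbours, the 4 most alike by Pearson's r and the largest changes of each list. The members and lists were chosen with earlier results of these data known.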

Additional observations from a re-analysis of the deposited data

Results flagged for a closer look

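In the following genes, all from lists around MYB, ZNF367 and DLX1, the treated arrays of 1 line lay above its untreated arrays and those of another line below. None of these differences between lines was tested, and most of the changes were not called.

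Of the Wnt and crypt genes, AXIN2 changed by 0.08 in SW48 against -0.21 in HCT116, a difference of 0.29, and against -0.50 in RKO, a difference of 0.58. LGR5 changed by 0.18 in RKO against -0.11 in HCT116 and -0.63 in SW48, differences of 0.29 and 0.81. Its mean levels in HCT116 and RKO, from 3.72 to 3.90, lay under the column medians of 4.97 to 5.05. The changes in those lines are thus of a dim signal, while untreated SW48 read 6.75. MYC changed by -0.36 in RKO against 0.03 in HCT116 and 0.16 in SW48, differences of 0.39 and 0.52.

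Of the MYB family and its cofactors, MYBL1 changed by 0.08 in RKO against -0.19 in SW48, a difference of 0.27. ETS1 changed by 0.02 in RKO against -0.36 in HCT116 and -0.13 in SW48, differences of 0.38 and 0.15. MEN1 changed by 0.13 in RKO against -0.08 in SW48, a difference of 0.22. SPI1 changed by 0.10 in SW48 against -0.10 in HCT116, a difference of 0.20.

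Of the DLX relatives, DLX5 changed by 0.24 in HCT116 against -0.07 in SW48, a difference of 0.30. MSX1 changed by 0.11 in RKO against -0.08 in HCT116 and -0.17 in SW48, differences of 0.19 and 0.28.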

How the results depend on the processing

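The alternatives were quantile or median normalization, a trended robust prior, leaving out dim genes, all probe sets, the mean of a gene's probe sets, fewer arrays in the fit, the replicate number as a block, a threshold of 0.01 and each array left out in turn. The tested values of the 3 genes, 11 in number, kept direction and side of the threshold in 196 of 220 refits, lost their call in 23 and gained it in 1; none reversed. The untested changes kept their direction in 140 of 140, but only quantile or median normalization could have reversed it. The other refits left the difference of means as it was or dropped an array from groups that did not overlap. The same limit holds for DLX1 in SW48 and RKO. The DLX1 change in RKO was -0.35 with quantile normalization (adjusted p = 0.0521) and -0.39 with all probe sets (0.0872), with the replicate block (0.0857) and with RKO alone (0.22), and -0.48 to -0.30 with an array left out. ZNF367 in untreated RKO against SW48 was -0.17 on centred arrays, -0.19 with all probe sets (0.0654), the replicate block (0.071) or untreated arrays alone (0.0696), and -0.23 to -0.15 with an array left out. MYB in that comparison ranged from 0.026 to 0.30. With an array left out, ZNF367 in HCT116 ranged from -1.08 to -0.98 and MYB in SW48 from -0.67 to -0.40.

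Genes called in HCT116, SW48 and RKO numbered 1228, 870 and 760 with the trended robust prior, 357, 218 and 87 with the replicate block, 208, 115 and 31 with the line alone, and 274, 188 and 84 at 0.01. They numbered 260 to 692, 188 to 394 and 97 to 226 with an array left out, and 433 in RKO without dim genes. With all probe sets, 10196, 9312 and 10429 were called between untreated lines (SW48 against HCT116, RKO against HCT116, RKO against SW48). For these 3 comparisons, leaving out an array gave 5463 to 6316, 4756 to 5813 and 5477 to 6292 genes. Same-numbered treated and untreated arrays had deviations correlated at 0.0546 in HCT116, -0.0388 in SW48 and -0.0547 in RKO, so no strong shared deviation was seen. These values cannot show whether same-numbered arrays were handled together. Beyond the tests that use fewer arrays, probe sets or degrees of freedom, the cause of these shifts was not tested.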
